A study of Mus musculus with 4 samples.

Results

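The liver takes bile acids, hormones and drugs out of the blood and passes them into bile, and the carriers and pumps that do so were followed here through 15 weeks of a high-fat, high-sucrose (HFHS) diet. They are the ATP-binding cassette (ABC) transporters, the organic anion transporting polypeptides (Slco genes) and the Slc22a, Slc10a and Slc47a carriers of organic ions and bile acids. Members were chosen by gene name alone: Abc, a letter from a to g and a digit, or a name that starts with Slco, Slc22a, Slc10a or Slc47a. This gave 100 of the 34761 gene names on the array, read by 132 of its 55681 oligonucleotides of 60 bases. Male C57BL/6 mice started the HFHS diet at 5 weeks of age and were sampled after 0, 5, 10 or 15 weeks, so they were 5, 10, 15 and 20 weeks old. There is 1 array per time, and whether its RNA came from 1 of the 4 mice of a time point or from a pool is not given in the sources used here. With 1 array per time, no difference below has a replicate check, a standard deviation or a test. Every group after 0 weeks is both older and longer on the diet, and no age-matched animals on another diet are analysed here, so diet, growth from youth to adulthood and ageing cannot be told apart.

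Hepatocytes face blood on their sinusoidal side and bile on their canalicular side. Uptake from blood runs mainly through NTCP (Slc10a1), the organic anion transporting polypeptides and the Slc22a carriers, while ABC pumps use ATP to move bile salts, phospholipid, sterols and conjugated drugs into bile or back to blood. In the mouse several of these genes differ between the sexes and between young and adult animals, and nuclear receptors for bile acids, oxysterols and foreign compounds control many of them.

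Levels are scaled signals, that is, fluorescence divided by the 75th percentile of all non-control spots of the same array. They allow 1 gene to be compared between arrays, not 1 gene with another. Sums over marker lists, given below, are led by the brightest genes of a list and do not give the course of a cell type. A gene was measured in a comparison where its spot was well above background on both arrays. It was called higher or lower from a 2-fold difference, a rule of size and not a test. The repeated spots of 1 array varied little, with a median SD of 0.0644 to 0.0743 on the log2 scale, which covers error within an array and not between mice.

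Of the 100 members, 62 were well above background on all 4 arrays, 11 on 1 to 3 arrays and 27 on none. The 27 without such a signal included the kidney carriers Slc22a2, Slc22a8 and Slc22a12, the brain carrier Slco1c1, the skin lipid transporter Abca12 and the retinal transporter Abca4. Over the 62 members on all arrays, the highest and the lowest array differed by a median of 1.52-fold, against 1.44-fold over all 16684 such genes. The range reached at least 2-fold for 13 members (21.0%), against 16.5% of all such genes. The ranges of most members were thus close to those of other liver genes. Of 29 known liver carriers, 27 were measured at 5 weeks, with 24 within 2-fold of 0 weeks, 1 above and 2 below. At 10 weeks 27 were measured (25, 1 and 1), and at 15 weeks 28 (25, 1 and 2). The shares above and below over all measured genes were 2.3% and 1.57%, then 2.92% and 1.53%, then 5.76% and 5.03%. Of the 26 carriers on all 4 arrays, 6 (23.1%) had a range of 2-fold or more, against 16.5% of all such genes. Their median range was 1.42-fold, against 1.44-fold. These counts thus do not show the carriers to be steadier than other genes. All 8 hepatocyte genes examined, among them albumin (Alb), were well above background on every array, as the tissue label implies. Of 5 kidney and gut genes listed as absent from liver, Umod, Slc12a1 and Slc34a1 were above background on none. The rest of that list went the other way. Fabp2 was above background on every array (219, 316, 326 and 239), and Vil1 at 0 and 15 weeks.

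The stretches before the start sites of 6 members are shown because 3 of them, all on chromosome 6, are organic anion carriers with different courses over the 4 arrays, and the other 3, on chromosome 19, are Slc22a genes of which 1 was lower after 0 weeks and 2 were not. Each run is the 250 bases before an annotated start, 5′ to 3′ on the gene's strand, from RefSeq in build GRCm38.p6. Capitals mark AGGTCA, a nuclear receptor half-site, TTCNNNGAA, the core bound by STAT factors, and TATAAA, the TATA box, each on either strand.
Slco1a1, chr6:141946963-141947212, minus strand: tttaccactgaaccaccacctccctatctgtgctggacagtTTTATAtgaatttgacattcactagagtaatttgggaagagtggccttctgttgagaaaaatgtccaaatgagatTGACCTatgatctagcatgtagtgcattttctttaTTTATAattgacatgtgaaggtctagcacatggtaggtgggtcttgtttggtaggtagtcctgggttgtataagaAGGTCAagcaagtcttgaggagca
Slco1a4, chr6:141856221-141856470, minus strand: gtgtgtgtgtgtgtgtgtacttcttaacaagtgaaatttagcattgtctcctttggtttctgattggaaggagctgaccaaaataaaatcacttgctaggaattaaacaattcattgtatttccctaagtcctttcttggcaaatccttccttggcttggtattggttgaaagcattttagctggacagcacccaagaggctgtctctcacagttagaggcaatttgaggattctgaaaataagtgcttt
Slco1b2, chr6:141629268-141629517, plus strand: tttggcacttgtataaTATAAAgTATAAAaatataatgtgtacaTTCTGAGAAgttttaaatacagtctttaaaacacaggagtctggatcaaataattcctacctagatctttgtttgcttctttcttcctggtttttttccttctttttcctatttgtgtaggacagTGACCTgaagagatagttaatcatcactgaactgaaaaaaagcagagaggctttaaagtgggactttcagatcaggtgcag
Slc22a26, chr19:7802668-7802917, minus strand: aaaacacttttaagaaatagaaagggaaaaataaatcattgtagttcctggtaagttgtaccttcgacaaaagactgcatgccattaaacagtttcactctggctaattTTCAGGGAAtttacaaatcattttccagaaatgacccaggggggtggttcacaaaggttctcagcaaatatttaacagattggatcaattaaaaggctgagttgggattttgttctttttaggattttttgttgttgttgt
Slc22a28, chr19:8131983-8132232, minus strand: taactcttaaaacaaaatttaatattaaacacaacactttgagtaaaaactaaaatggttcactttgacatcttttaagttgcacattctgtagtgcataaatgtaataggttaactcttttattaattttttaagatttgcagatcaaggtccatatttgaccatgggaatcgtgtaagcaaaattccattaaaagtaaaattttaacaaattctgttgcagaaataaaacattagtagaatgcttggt
Slc22a30, chr19:8405106-8405355, minus strand: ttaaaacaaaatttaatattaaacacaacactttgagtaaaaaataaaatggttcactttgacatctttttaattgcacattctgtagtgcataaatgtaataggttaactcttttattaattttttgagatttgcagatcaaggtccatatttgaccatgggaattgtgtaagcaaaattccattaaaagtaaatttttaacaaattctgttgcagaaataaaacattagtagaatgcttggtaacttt
The Slco1a1 stretch holds AGGTCA 2 times and TATAAA 2 times, the Slco1b2 stretch holds AGGTCA 1 time, TTCNNNGAA 1 time and TATAAA 2 times, and the Slc22a26 stretch holds TTCNNNGAA 1 time, with its middle 137 bases before the start. None of the 3 motifs lies in the other 3 stretches. Laid against each other, the Slc22a28 and Slc22a30 stretches are the same at 238 of 244 bases (97.5%), whereas Slco1a1 and Slco1a4 share 33.6% of aligned bases at their best ungapped offset. Of the 100 members, 79 have a stretch in the table, 92 stretches in all. AGGTCA occurs in 14.1% of these and in 14.0% of all 32851 stretches of this length, TTCNNNGAA in 9.78% and 7.02%, and TATAAA in 13.0% and 12.4%. A match is a description of letters, not evidence of a bound site. The shares for 2 further motifs were 9.78% against 10.2% for TGACNNNGC, the antioxidant response core, and 7.61% against 6.02% for CACGTG, the E-box.

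At 5 weeks 63 members were measured against 0 weeks. Of these, 1 was at least 2-fold higher, where the share over all measured genes was 2.3%, and 4 were at least 2-fold lower, where that share was 1.57%. The higher member was Slc22a7, and the lower members were Slco1a4, Abcb1a, Slc22a13b and Slc22a15. At 10 weeks, 2 of 65 were higher (2.92% of all genes), Slc22a7 and Slc10a2, and 1 was lower (1.53% of all genes), Slco1a4. At 15 weeks, 4 of 66 were higher (5.76% of all genes), Abcc1, Abcg1, Slc22a17 and Slco3a1, and 4 were lower (5.03% of all genes), Slc22a26, Slc22a4, Slco1a4 and Slco2a1. As shares of the measured members these are 1.59% higher and 6.35% lower at 5 weeks, 3.08% and 1.54% at 10 weeks, and 6.06% in each direction at 15 weeks, so the widest gap from the share over all genes was among the lower genes at 5 weeks, and it rests on 4 genes, of which 1 (Slc22a13b) is a pseudogene and 2 (Slc22a13b and Slc22a15) lose the call under another background correction. The median member lay 0.04 below the median of all measured genes at 5 weeks, 0.10 above it at 10 weeks and 0.07 above it at 15 weeks, on the log2 scale. That median gene itself stood at −0.02, −0.01 and −0.25. Relative to it, the count at 15 weeks became 8 higher and 3 lower: Abca8a, Abca9, Abcc5 and Abcc9 were added to the higher genes, and Slco1a4 left the lower ones. This shift was not particular to the members. Among all genes called at 15 weeks, 74.6% were higher relative to the median gene, against 53.4% as scaled.

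**Figure D1:**
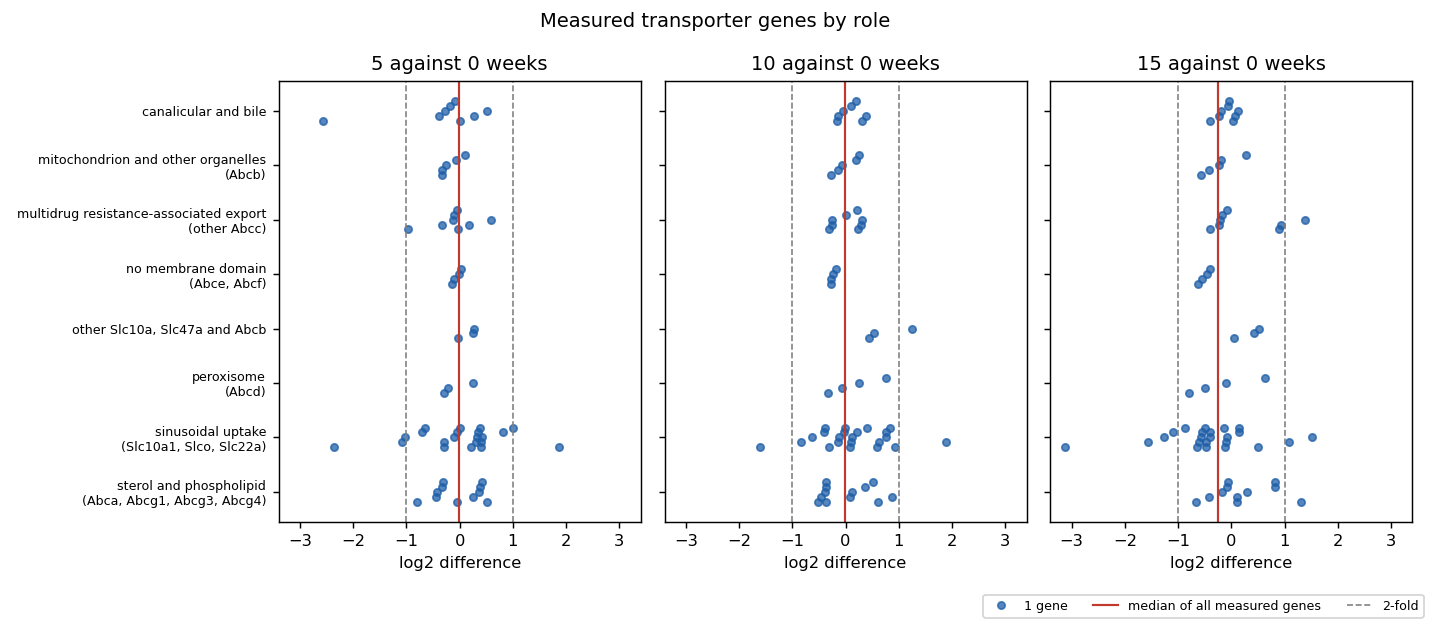
Each point is 1 measured transporter gene, placed by its log2 difference from 0 weeks (horizontal axis) and by its role group (vertical axis), at 5, 10 and 15 weeks. Most points lie between the dashed 2-fold lines, the uptake carriers spread furthest, and the red line of the median of all measured genes moves to −0.25 at 15 weeks.

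The group named here uptake carriers, which is Slc10a1 and all Slco and Slc22a genes, held most of the calls against 0 weeks. It is also the largest group and was set by name. It takes in genes described below as a pseudogene, a receptor and a transporter known from endothelium, so its calls are not all of hepatocyte uptake. Of 42 members in this group, 25 were well above background on at least 1 array. At 15 weeks 23 were measured, of which 2 were higher, 4 lower and 17 within 2-fold of 0 weeks. Over all measured genes at 15 weeks, 5.76% were higher and 5.03% lower. On the log2 scale 18 of the 23 lay below 0, and 14 lay below the median gene.

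Slc22a7, a sinusoidal carrier of organic anions and cyclic nucleotides, had the widest range of the members on all 4 arrays. Its scaled signal was 19.4 at 0 weeks, 70.9 at 5 weeks, 71.5 at 10 weeks and 13.3 at 15 weeks. The middle pair of arrays was high and the first and last were low. It was 3.65-fold higher at 5 weeks and 3.68-fold higher at 10 weeks than at 0 weeks, and 5.37-fold lower at 15 than at 10 weeks. Its oligonucleotide lies at chr17:46569272-46569331 in build mm9, on the minus strand. Whether that stretch is exonic or untranslated was not analysed here.

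Slco1a1, an organic anion carrier known to be higher in adult male than in female mouse liver, had the same order of arrays except at its top. Its scaled signal was 9.0, 17.9, 17.1 and 4.89 at 0, 5, 10 and 15 weeks, read at chr6:141856493-141856552 (mm9, minus strand). It stood 1.99-fold above 0 weeks at 5 weeks and 1.91-fold at 10 weeks, just short of the 2-fold rule. At 15 weeks it was 3.51-fold lower than at 10 weeks and 3.67-fold lower than at 5 weeks. Relative to the median gene its 5-week log2 difference was 1.01, which passes the rule.

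Slco1a4, a carrier of cardiac glycosides and bile acids that is known to be higher in female than in adult male mice, took the opposite course early on. Its scaled signal was 8.14, 1.58, 2.66 and 3.81 (chr6:141754675-141754734, mm9, minus strand). The 0-week array, from the youngest mice, was the highest, and the 5-week array was the lowest. It was 5.15-fold lower at 5 weeks, 3.06-fold lower at 10 weeks and 2.13-fold lower at 15 weeks than at 0 weeks, and 2.42-fold higher at 15 than at 5 weeks. Relative to the median gene, its 15-week log2 difference from 0 weeks was −0.84 and no longer passed the rule.

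On the oligonucleotide that stands for each gene, Slc10a1, Slco1b2 and Slco2b1 differed by less than 2-fold between any pair of arrays. Slc10a1, the sodium-dependent bile acid carrier NTCP, gave 762, 764, 690 and 723, the narrowest range of the members on all 4 arrays (1.11-fold). A dimmer oligonucleotide for Slc10a1 read 63.4, 51.1, 56.3 and 28.2, which is −1.17 on the log2 scale at 15 weeks where the brighter one gives −0.08, so the gene's 15-week level depends on which is read. Slco1b2, the liver-specific carrier of bilirubin and bile acids, gave 307, 379, 408 and 287. Slco2b1, a carrier of steroid sulfates, gave 28.4, 27.3, 30.6 and 20.3.

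Slc22a5, which brings carnitine into cells, gave 3.69, 4.97, 3.39 and 2.37, highest at 5 and lowest at 15 weeks (2.10-fold lower at 15 than at 5 weeks). Slc22a4, a related carrier of ergothioneine, gave 0.571, 0.350, 0.439 and 0.236, and was 2.42-fold lower at 15 than at 0 weeks, but with normexp background correction its log2 difference was −0.83, short of the rule. Both carriers were lowest on the 15-week array, as were 59.2% of all genes above background on all 4 arrays and 41.9% of such members.

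**Figure D2:**
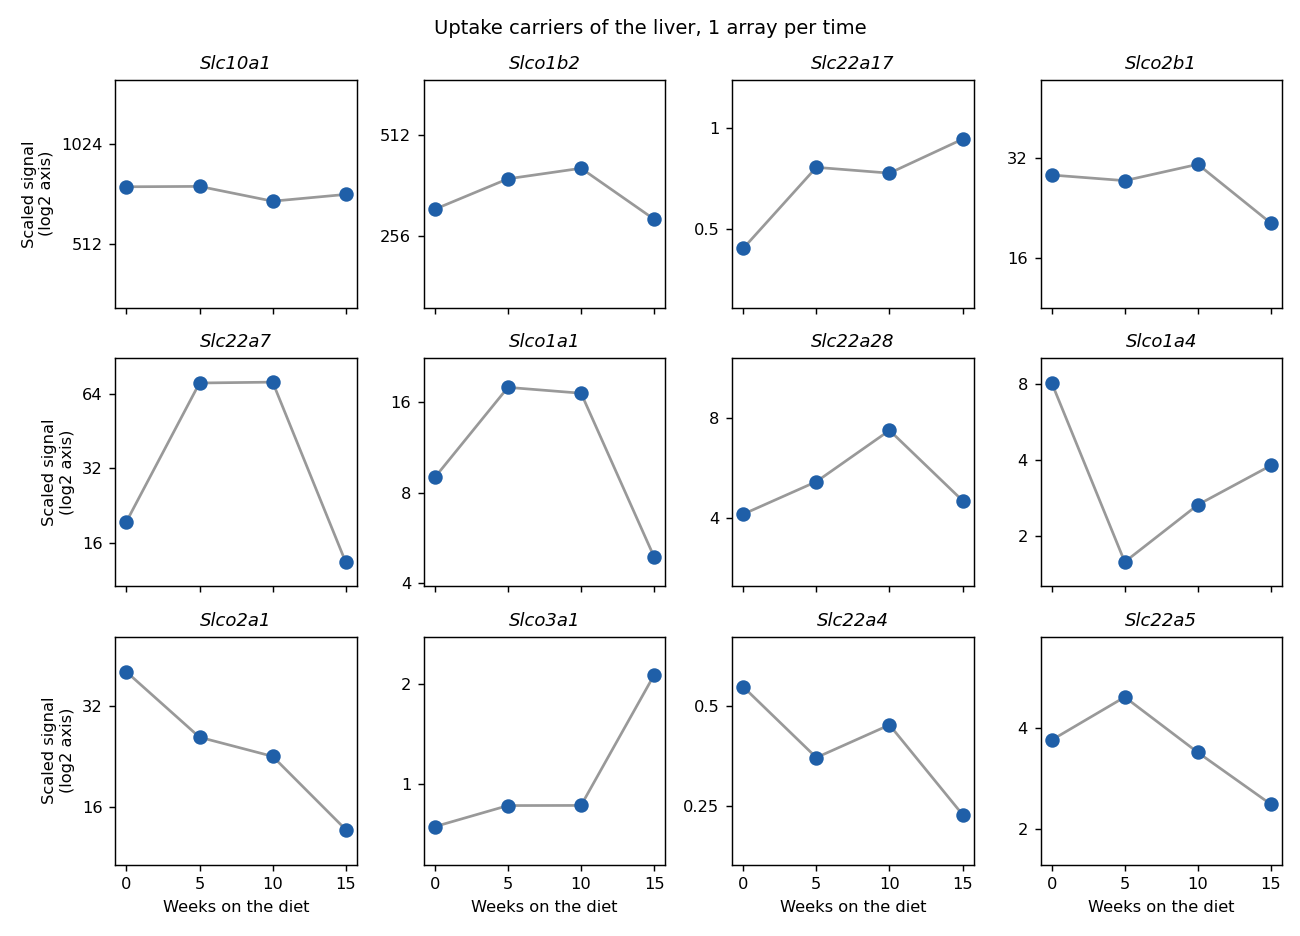
Scaled signal (vertical, log2 axis, multiples of the array's 75th percentile) against weeks on the diet for 12 uptake carriers, with 1 point per array and filled points well above background. Slc22a7 and Slco1a1 are high at 5 and 10 weeks, Slco1a4 is highest at 0 weeks, Slco3a1 is highest at 15 weeks, and Slc10a1 is nearly flat.

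Slco2a1, the prostaglandin transporter, gave 40.7, 25.9, 22.7 and 13.7. Its signal was lower on each longer-fed array, and at 15 weeks it was 2.98-fold lower than at 0 weeks. This transporter is known from endothelium, among other cells. The 5 endothelial markers had summed scaled signals of 73.0, 88.4, 83.4 and 61.9 on the same arrays, and 0 of 5 differed 2-fold from 0 weeks at any time. In bulk liver, fewer cells of a type and less RNA per cell cannot be told apart.

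Slco3a1, a widely expressed member of the family, gave 0.747, 0.864, 0.865 and 2.13. The first 3 arrays were close together and the 15-week array stood 2.86-fold above the first. Its second oligonucleotide gave 0.753, 0.967, 0.850 and 1.58, which is 1.07 on the log2 scale at 15 weeks against 1.51 for the first. Slc22a17, a receptor for lipocalin-bound iron, gave 0.436, 0.764, 0.734 and 0.928, and was 2.13-fold higher at 15 than at 0 weeks, but with normexp background correction its log2 difference was 0.65, short of the rule.

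At 5 weeks, 2 further members of the group were lower. Slc22a13b, which RefSeq lists as a transcribed pseudogene and so not as a working carrier, gave 0.326, 0.154, 0.261 and 0.219 (2.11-fold lower at 5 weeks). Slc22a15 gave 0.887, 0.438, 0.667 and 0.584 (2.03-fold lower at 5 weeks, and just inside 2-fold relative to the median gene). With normexp background correction neither passed the rule at 5 weeks, with log2 differences of −0.44 and −0.65. For both, 0 weeks was the highest and 5 weeks the lowest array.

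The Slc22a genes of chromosome 19 form a rodent cluster of organic anion carriers, and their levels did not run in parallel. Slc22a26 gave 0.637 at 0 weeks, 0.069 at 5 weeks, 0.086 at 10 weeks and 0.073 at 15 weeks. Its spot was well above background at 0 and 15 weeks only, so it was at least 6.93-fold lower at 5 weeks, at least 7.39-fold lower at 10 weeks and 8.76-fold lower at 15 weeks. Slc22a27 and Slc22a29 were well above background at 15 weeks only, with scaled signals of 0.248 and 0.199 there. Against 0 weeks these are at least 2.98-fold and at least 2.39-fold higher. The 15-week array had the lowest floor of the 4, 0.0580 against 0.0833 to 0.0919, and both signals lie above the floors of all 4.

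Slc22a28, whose upstream stretch is nearly the same as that of Slc22a30, gave 4.10, 5.14, 7.32 and 4.5. A dimmer oligonucleotide for it read 0.624, 1.87, 1.94 and 0.877, which is 3.0-fold and 3.1-fold above 0 weeks at 5 and 10 weeks where the brighter one is 1.25-fold and 1.79-fold above. Slc22a30 gave 1.27, 1.68, 2.16 and 1.79. Both Slc22a28 and Slc22a30 fall outside the rule for named genes and are named here after their values were seen. On the oligonucleotide that stands for each gene, both were highest at 10 weeks and lowest at 0 weeks. The longest run of bases that array oligonucleotides of different members share is 13, so no member's oligonucleotide repeats most of another's.

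Slc22a6, an organic anion carrier best known from kidney, gave 0.329, 0.055, 0.322 and 0.232, with the 5-week spot below background (at least 3.57-fold lower than at 0 weeks). At 10 weeks, 12 of the 47 spots around it read at least 1.5-fold above their median on the other arrays, and the part of this local brightness in the 10-week value was not tested. The kidney genes Umod, Slc12a1 and Slc34a1 were below background on all 4 arrays. Of the same kidney and gut list, Fabp2 was above background on all 4 and Vil1 at 0 and 15 weeks.

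Slc10a2, the bile acid carrier of ileum and bile duct, gave 2.03, 1.99, 4.83 and 2.92. It was highest at 10 weeks, 2.37-fold above 0 weeks and 2.42-fold above 5 weeks. A further oligonucleotide, named 9130221J18Rik in the files and assigned to Slc10a2 through RefSeq, gave 1.15, 1.45, 5.47 and 3.35 and was also highest at 10 weeks. The summed scaled signal of 7 bile duct markers was 13.8, 13.7, 4.18 and 16.6. Single genes led this sum: Krt19 gave 8.07, 1.59, 0.592 and 2.04, Krt7 gave 0.481, 7.96, 0.143 and 0.400, and Spp1 read 9.69 at 15 weeks. Of the 7, 4 were at least 2-fold lower at 10 weeks than at 0 weeks and none was higher, and their part in the level of Slc10a2 was not tested.

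Among the other Slc10a, Slc47a and Abcb members outside the bile groups, 3 of 8 were measured at every time against 0 weeks, and Slc10a2 was the 1 called. All 3 had log2 differences above 0 at 10 and at 15 weeks (0.44 to 1.25 and 0.05 to 0.52).

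Of the 9 pumps of the bile side, 8 were measured at 5 weeks with 1 lower. At 10 weeks 7 were measured and at 15 weeks 8, with none called at either time. Over all measured genes, between 1.53% and 5.76% were called in a given direction, so none called among 7 or 8 genes shows little. The same holds for the other small groups given below. Abcb11, the bile salt export pump, gave 76.6, 58.8, 74.5 and 66.5. Abcb4, the phosphatidylcholine floppase that protects the ducts from bile salts, gave 292, 351, 262 and 247. Their highest and lowest arrays differed by 1.30-fold and 1.42-fold.

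Abcc2, which exports bilirubin glucuronides and other conjugates, gave 24.2, 24.4, 22.0 and 18.4. Abcg2, an exporter of urate, sulfates and drugs, gave 53.7, 76.4, 61.7 and 55.1. Slc47a1, which extrudes organic cations in exchange for protons, gave 6.25, 5.14, 6.68 and 6.05. None of these differed 2-fold between any pair of arrays.

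Abcg5 and Abcg8 form the heterodimer that secretes cholesterol and plant sterols into bile. Abcg5 gave 47.8, 42.0, 59.5 and 52.1. Abcg8 gave 1.33, 1.25, 1.73 and 1.39. Both were lowest at 5 weeks and highest at 10 weeks, with ranges of 1.42-fold and 1.39-fold.

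The 2 mouse P-glycoproteins, which expel drugs and toxins, were read by 1 oligonucleotide each. Abcb1a gave 1.21 at 0 weeks, 0.204 at 5 weeks and 1.15 at 15 weeks. It was 5.92-fold lower at 5 than at 0 weeks and 5.65-fold higher at 15 than at 5 weeks. Its 10-week spot was marked as uneven by the scanner software and has no value here; if kept, it reads 2.02, and 16 of the 45 spots around it were also bright on that array. Abcb1b gave 0.107, 0.150, 0.128 and 0.249, with the 0-week spot below background, so it was at least 2.34-fold higher at 15 weeks.

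**Figure D3:**
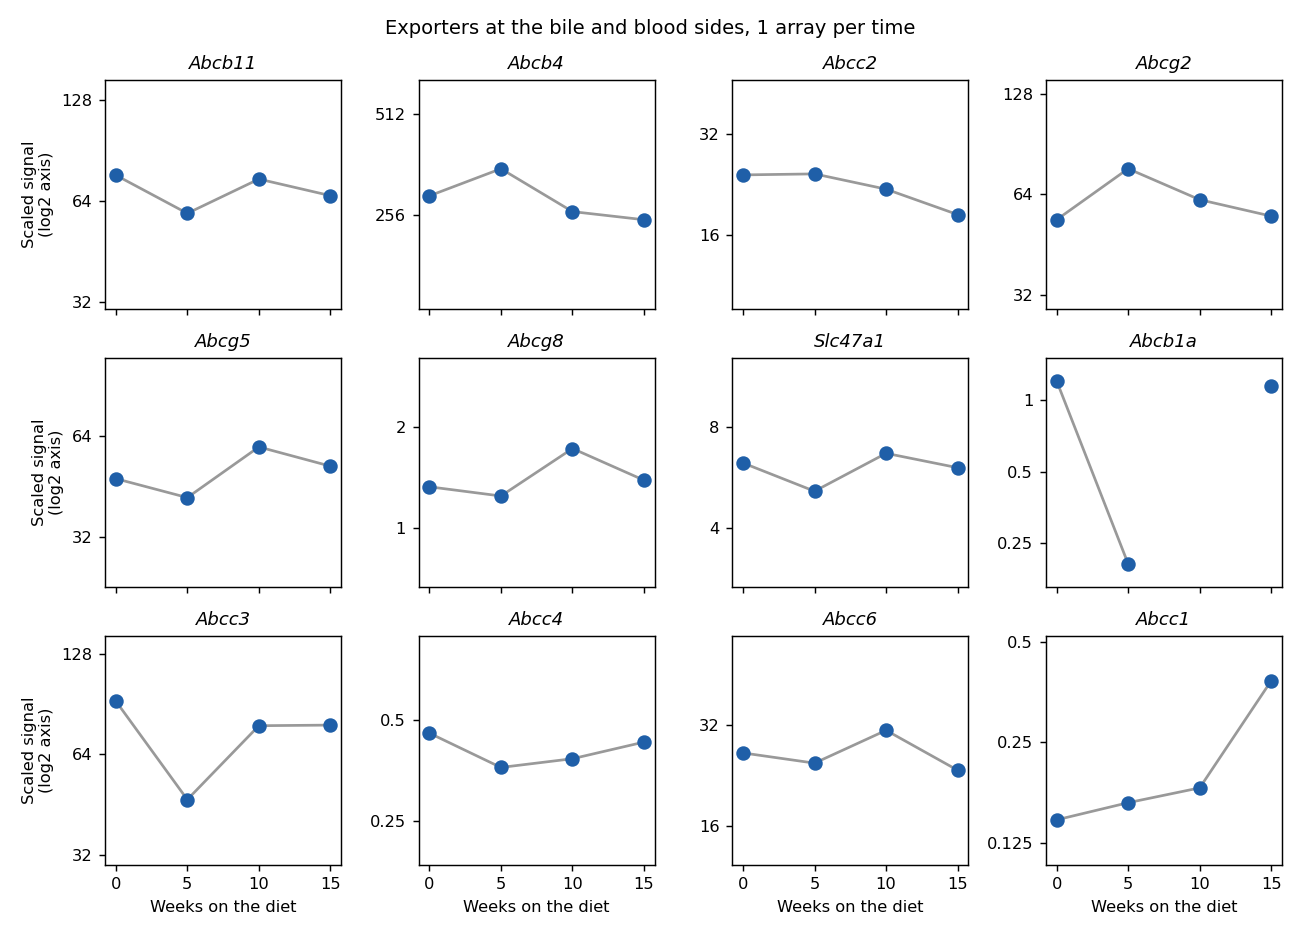
Scaled signal (vertical, log2 axis) against weeks on the diet for 12 exporters of the bile and blood sides, with 1 point per array and filled points well above background. Abcb1a has no 10-week value and is low at 5 weeks, Abcc3 is lowest at 5 weeks, Abcc1 is highest at 15 weeks, and the other panels vary by at most 1.42-fold.

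The remaining Abcc members include pumps that return conjugates to blood. Abcc3, which carries bile acid and bilirubin glucuronides across the sinusoidal membrane, gave 92.5, 46.9, 78.0 and 78.3. The 5-week array was the low one, 1.97-fold below 0 weeks and just short of the rule. Abcc4, an exporter of cyclic nucleotides and bile acids, gave 0.457, 0.361, 0.383 and 0.430. Abcc6, the liver pump whose loss causes ectopic calcification, gave 26.5, 24.7, 31.0 and 23.5, and its second oligonucleotide differed from this by at most 0.56 on the log2 scale.

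Abcc1, a widely expressed exporter of glutathione conjugates and leukotrienes, was the 1 of 8 measured members of this group called at 15 weeks. It gave 0.146, 0.165, 0.183 and 0.382, which is 2.61-fold higher at 15 than at 0 weeks and 2.09-fold higher than at 10 weeks. With normexp background correction, an alternative way of removing background, its 15-week log2 difference was 0.53, short of the rule. Abcc5 and Abcc9 had 15-week values 0.92 and 0.89 above 0 weeks on the log2 scale. Abcc5, an exporter of cyclic nucleotides, is printed 10 times on the array, and its log2 level was −1.16 (SD over spots 0.153), −1.22 (0.103, 9 spots), −1.15 (0.163) and −0.23 (0.0734). These SDs cover error between spots of 1 array and not between mice.

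Of 19 sterol and phospholipid members, 12 were well above background on at least 1 array. None was called at 5 or 10 weeks, and Abcg1 was the 1 called at 15 weeks, of 11 measured. Abcg1, which loads cholesterol onto high-density lipoprotein and is a target of the oxysterol receptors, gave 1.34, 1.72, 2.05 and 3.33. Its signal was higher on each longer-fed array and stood 2.48-fold above 0 weeks at 15 weeks. Abca1, which exports cholesterol and phospholipid to apolipoprotein A-I and answers to the same receptors, gave 14.3, 17.1, 15.2 and 12.6.

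Abca6, Abca8a and Abca8b belong to a group of related lipid transporters. Abca6 gave 10.2, 8.11, 7.88 and 6.43. Abca8a gave 0.526, 0.749, 0.960 and 0.927. Abca8b gave 6.94, 5.56, 5.36 and 7.5. As scaled, none of these reached 2-fold between any pair of arrays. Abca17, a transporter described in testis, gave 0.663, 0.082, 0.510 and 0.042. Its spot was above background at 0 and 10 weeks only. On this spot Abca17 was at least 7.21-fold lower at 5 weeks and at least 11.4-fold lower at 15 weeks than at 0 weeks. A dimmer oligonucleotide for Abca17 was below background on every array (0.035, 0.023, 0.023 and 0.015). The signal at 0 and 10 weeks, and so both bounds, rest on the brighter oligonucleotide alone.

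The higher values at 15 weeks stood beside a large difference in macrophage markers. The summed scaled signal of 10 macrophage markers was 131, 241, 302 and 355, and 5, 9 and 8 of the 10 were at least 2-fold higher than at 0 weeks at 5, 10 and 15 weeks. Cd68, a lysosomal macrophage protein, gave 3.73, 8.62, 9.44 and 19.5, and Trem2, a lipid-sensing macrophage receptor, gave 0.415, 1.27, 1.29 and 9.64. Abcg1 and Abcc1 are known from macrophages as well as from other cells. The part of these cells in the levels of Abcg1, Abcc1, Slco3a1 and Slc22a17 was not tested. Other marker lists also moved. The summed scaled signal of 5 stellate markers was 22.6, 12.0, 3.30 and 23.2, led by Acta2 at 0 weeks (17.3) and by Col1a1 at 15 weeks (16.0). Of these markers 2, 3 and 1 were lower than at 0 weeks at 5, 10 and 15 weeks, with 1 higher at 15 weeks. Of the 7 bile duct markers 3, 4 and 1 were lower, with 1 higher at 5 weeks and 2 higher at 15 weeks. Their part in the members that were highest at 0 weeks was not tested.

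**Figure D4:**
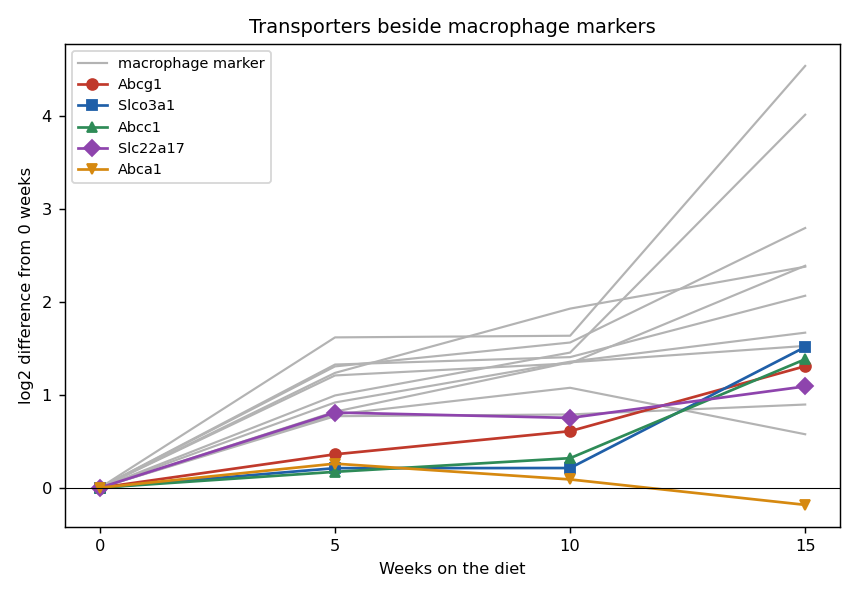
Log2 difference from 0 weeks (vertical) against weeks on the diet for 5 transporters (coloured, 1 value per array) and 10 macrophage markers (grey). Abcg1, Slco3a1, Abcc1 and Slc22a17 end between 1.09 and 1.51 at 15 weeks, above 2 of the markers and below the other 8, while Abca1 ends at −0.18.

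None of the 5 Abcb members of mitochondria and other organelles, which serve heme and iron-sulfur metabolism and peptide transport, was called against 0 weeks, with log2 differences from −0.58 to 0.28 at 15 weeks. The Abcd members, most of which import very-long-chain and other fatty acids into peroxisomes for oxidation, also had none called against 0 weeks among those measured. Abcd3 gave 218, 258, 208 and 154. Abcd2 gave 0.171, 0.101, 0.290 and 0.264, with the 5-week spot below background, and was at least 2.87-fold higher at 10 than at 5 weeks.

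Abce1 and the Abcf proteins lack membrane domains and act on ribosomes and translation rather than in transport. All 4 were measured at every time and none was called. Their log2 differences lay between −0.28 and −0.18 at 10 weeks and between −0.63 and −0.40 at 15 weeks. All 4 also lay below the median gene at both times, by a median of 0.26 at 15 weeks (−0.51 against −0.25).

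The members were also compared between the later arrays. From 5 to 10 weeks, 1 of 63 members was higher (0.953% of all genes), Slc10a2, and 0 were lower (1.13% of all genes). From 10 to 15 weeks, 2 of 66 were higher (3.95% of all genes), Abcc1 and Slco3a1, and 2 were lower (4.06% of all genes), Slc22a7 and Slco1a1. Between 5 and 15 weeks, both adult ages, 4 of 64 were higher (4.08% of all genes), Abcb1a, Abcc1, Slco1a4 and Slco3a1, and 3 were lower (4.3% of all genes), Slc22a5, Slc22a7 and Slco1a1. These comparisons share arrays with those against 0 weeks and do not add independent evidence.

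Genes with several oligonucleotides allowed a check within each array. At 15 weeks 11 members had more than 1 measured, and the median gap between the lowest and the highest log2 difference was 0.36. Of the 11, Slc10a1 had a gap of at least 2-fold at 15 weeks, and Slc22a28 had one at 5 weeks. Among the 10 such members at 10 weeks none had.

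**Figure D5:**
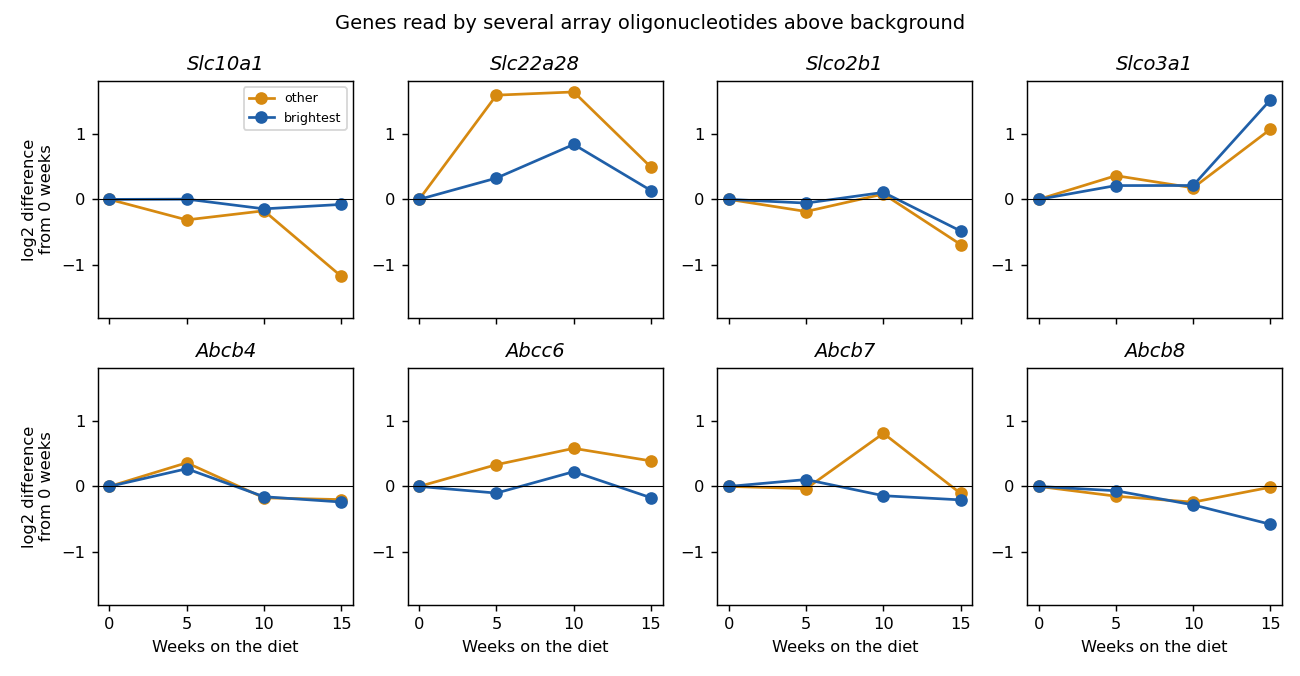
Log2 difference from 0 weeks (vertical) against weeks on the diet for 8 genes read by several oligonucleotides above background on all 4 arrays, with the brightest in blue and the other in orange. The lines run close together for Slco2b1, Slco3a1 and Abcb4, and part for Slc10a1 at 15 weeks (−0.08 and −1.17) and for Slc22a28 at 5 weeks (0.32 and 1.59).

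Few regulators of these genes were called. Of 24 regulators examined, 22 were measured against 0 weeks, with none called at 5 or 10 weeks, and 1 higher and 2 lower at 15 weeks. The bile acid receptor Nr1h4 gave 66.2, 78.3, 70.4 and 53.6, the xenobiotic receptor Nr1i2 gave 21.0, 21.5, 20.7 and 17.3, and its relative Nr1i3 gave 35.9, 29.1, 37.4 and 18.6. Bcl6, a repressor in adult male liver, gave 9.30, 6.84, 10.9 and 18.7 and was the 1 higher at 15 weeks. Onecut1, a hepatocyte transcription factor, gave 14.9, 24.9, 27.9 and 7.11, and Esr1, the oestrogen receptor, gave 1.61, 0.924, 1.28 and 0.713; both were lower at 15 weeks. Cux2, a female-biased repressor, was above background at 0 weeks only (0.171).

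Of 9 genes of bile acid synthesis and its feedback, 8 were measured, with 2 higher at 5 and at 10 weeks and 1 lower at 15 weeks. Cyp7a1, which sets the pace of the classic route from cholesterol to bile acids, gave 5.73, 17.7, 24.9 and 3.22. Cyp7b1, the oxysterol hydroxylase of the alternative pathway, gave 22.8, 314, 102 and 38.9. Both were high at 5 and 10 weeks, on the arrays where Slc22a7 and Slco1a1 were also high. The gene lower at 15 weeks was Klb, a co-receptor for fibroblast growth factors, at 6.59, 6.47, 5.91 and 2.97.

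Of 8 partners and scaffolds, 7 were measured at 10 and 15 weeks. Slc51b, a subunit of the basolateral bile acid exporter, gave 0.429, 0.0896, 0.192 and 0.393, with the 5-week spot below background, and was lower at 10 weeks. Msn, a cytoskeletal linker abundant in leukocytes, was higher at 15 weeks, and Slc51a, the other subunit, was below background on all 4 arrays. At 15 weeks hepatocyte markers were also dimmer: their summed scaled signal was 13015, 11707, 12633 and 8472, although of the 8 only Tat, a tyrosine-degrading enzyme, passed the 2-fold rule. Their part in the lower uptake carriers at 15 weeks was not tested.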

How the data were processed

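Total RNA of mouse liver was amplified, labelled with Cy3 and hybridised to 1-colour Agilent arrays, per the labels' protocols. The scanner files deposited by the authors hold, per the file headers, a background-subtracted fluorescence intensity for each spot, made with Agilent Feature Extraction 10.7.3.1, with probe positions in mm9. The deposited value table holds the same intensity divided by each array's median. From the scanner files, each spot's processed signal was divided by its array's 75th percentile and put on the log2 scale with Python 3.11.15. Control, uneven and outlier spots were left out, spots of a probe were averaged, and the brightest probe by mean stood for its gene. A gene above background on 1 of 2 arrays got a bound against the array's lowest signal above background. Alternatives used limma 3.58.1. The code was tested on simulated data. Of the members' 132 probes, 122 were named by RefSeq accession and 10 by symbol. All 4 scans carry the same scan time. Named genes were those at least 2-fold different between any pair of arrays or by a bound, and 29 known liver carriers whatever their values. Some further members, among them Slc22a28, Slc22a30 and Abcc5, are named outside this rule. The members and lists were chosen with earlier results of these data known. Further marker lists, for adipocytes and red cell precursors, gave 1 measured gene (Cfd, higher at every later time) and 2 measured genes (none called). A few members and regulators that enter the counts are not reported here by name.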

Additional observations from a re-analysis of the deposited data

How the results depend on the processing

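Of 81 values for the whole set, 66 kept their direction and stayed within 1.5 times (counts) or the spot spread (medians), over 9 other settings, 2 of them chosen after seeing the data. With the 75th percentile of detected probes, and also relative to the median measured gene (chosen after seeing the data), 2 members were higher at 5 weeks and 8 at 15 weeks. Quantile normalization gave 2 higher at 5 weeks. Normexp background correction gave 2 lower at 5 weeks and 2 higher and 2 lower at 15 weeks. Without a background filter, 2 were higher and 10 lower at 5 weeks, 6 and 5 at 10 weeks, and 10 and 8 at 15 weeks, and the median member at 10 weeks stood 0.014 above the median gene. The share of higher genes among the members called at 15 weeks was 50%, and 72.7% with the detected percentile or relative to the median gene and 62.5% with quantile normalization. Over all called genes the share was close to these: 53.4%, and 71.2% (detected percentile), 74.6% (median gene) and 62.4% (quantile). At 5 weeks the members' share was 20.0%, against 40.0% with the detected percentile or relative to the median gene and 33.3% with quantile normalization or normexp. Over all called genes at 5 weeks it was 59.5%, and 62.7% (detected percentile), 62.0% (median gene), 58.4% (quantile) and 55.4% (normexp). Of 962 values of single named genes, 945 kept their status as called or not called, 11 lost a call, 6 gained one and 0 reversed. Most of these values had no call to lose, so the 945 does not measure how firm the calls are. Slco1a4 at 15 weeks lost its call with the detected percentile, quantile normalization, normexp and relative to the median gene. Slc22a15 at 5 weeks lost its call with the detected percentile, normexp and relative to the median gene. Slc22a13b at 5 weeks and Abcc1, Slc22a17 and Slc22a4 at 15 weeks lost theirs with normexp. The cause was not tested. Dim members such as Abcc1 and Slc22a26 lie close to the lowest signal that counts as above background. No paired analysis was possible because each time has 1 array.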
